A study of Mus musculus with 16 samples.

Results

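The nuclear genes for the subunits of oxidative phosphorylation were followed in mouse lung after repeated inhalation of bacterial lipopolysaccharide (LPS), a part of the outer membrane of Gram-negative species. Members were all genes on the array whose symbols begin with Nduf, Uqcr or Atp5, the 4 succinate dehydrogenase genes Sdha to Sdhd, Cyc1, and the Cox4 to Cox8 families. This gave 86 genes among the 16481 with a symbol that could be tested, and all 86 had a value on every array used. By function, 33 belong to complex I, 4 to complex II, 9 to complex III, 19 to complex IV and 17 to complex V, and 4 are Ndufaf assembly factors of complex I. Ndufa4 and its paralogue Ndufa4l2 carry complex I names but were counted with complex IV, where the Ndufa4 protein is found.

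Male C57/BL6 mice aged 8 weeks either inhaled aerosolised LPS for 5 days, with lungs taken at the end of the last exposure, or breathed air only. Each group had 4 pools of lung RNA from 3 animals a pool, 12 mice a group. Each pool was hybridised to 2 two-colour arrays against a common reference RNA, with the dyes exchanged. Each level given is the log2(lung/reference) of a pool, and differences are LPS minus air on that scale with their standard error (SE, n = 4 pools per group). Whole lung was measured, so fewer cells of a type and less RNA per cell cannot be told apart. The labels name separate animals, so the spread between pools includes variation between mice averaged over 3 of them.

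Oxidative phosphorylation takes place in the inner mitochondrial membrane. Complex I oxidises NADH and complex II succinate; both pass electrons through ubiquinone to complex III, and cytochrome c carries them on to complex IV, which reduces oxygen. Complexes I, III and IV pump protons, and complex V, the ATP synthase, makes ATP as protons flow back through its rotating c ring. A few core subunits are encoded in mitochondrial DNA and were not matched by the symbols used. In the lung, alveolar type 2 cells, ciliated cells and muscle of the airways, vessels and pulmonary veins are rich in mitochondria, and mouse macrophages activated by LPS in culture are known to turn towards glycolysis.

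Several properties of the data touch every value below. Both channels were positive on 96.1% to 99.5% of the spots of an array, and the median lung signal was 4.28 to 28.2 times the local background. For air pool 4, the deposited Cy3 lung table mixed the images of separate arrays and was left out, so 15 of 16 arrays were used and air pool 4 rests on its Cy5 array. Where the reference belongs, that table held Cy5 values matching the lung-in-Cy5 array of air pool 3 (r = 0.998). Settings with all 16 arrays therefore include 1 ratio that is not lung over reference. Images had been quantified with version 2.2.4 of the program for LPS pools 3 and 4 and air pools 1 and 2, and with version 2.2.3 for LPS pools 1 and 2 and air pools 3 and 4. The lowest median lung signals were on the Cy3 arrays of LPS pools 3 and 4 and air pool 2 (4.28, 4.87 and 4.77 times background). The 2 arrays of these pools correlated at r = 0.40, 0.58 and 0.46 over features. In the other pools with 2 arrays r was 0.79 to 0.90, with 0.79 in air pool 1. The image names carry a week number. It is 1 in the LPS group, 4 in the first pair of air pools (1 and 2) and 8 in the other pair (3 and 4), whereas the labels give the same week for all. This number and the exposure cannot be told apart, and among air pools it coincides with the version. Every gene name depends on how the annotation was laid over the spot grid, which was inferred from the data.

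Transcripts of oxidative phosphorylation were, in the middle of their distribution, slightly higher in LPS lungs, and 4 of the 8 genes past the test belonged to complex V. Of the 86 members, 8 rose, 0 fell and 78 did not pass the test (limma, Benjamini-Hochberg adjusted p under 0.05 over 20629 features). The share of members that rose was 9.30%, beside 5.95% of all features that rose, 0.713% that fell and 6.67% in either direction. At an unadjusted p under 0.05, 27 members (31.4%) were higher and 5 lower, beside 3044 (14.8%) higher and 1592 lower of the 20629 features. The 8 were the complex V genes Atp5md, Atp5mpl, Atp5b and Atp5g1, the complex I genes Ndufv2 and Ndufa1, Uqcrq of complex III and Cox6c of complex IV. Their differences lay between 0.57 and 1.12, or 1.48-fold to 2.17-fold. The calls depended on single pools: 0 members passed without LPS pool 1 (20 higher and 2 lower at an unadjusted p under 0.05), 1 without LPS pool 2, 4 without LPS pool 3, 1 without air pool 3 and 1 without air pool 4. Median centring in place of loess gave 0 calls (19 higher and 2 lower at an unadjusted p under 0.05). With all 16 arrays, the mixed array of air pool 4 among them, 0 passed, beside 2.31% of features higher and 0.121% lower. In that setting 3 members were higher and 4 lower at an unadjusted p under 0.05. All 8 had positive differences in each dye orientation taken alone: 2 of them passed on the arrays with lung in Cy3 (1.91% of features higher, 0.0677% lower) and 3 on those with lung in Cy5 (4.28% higher, 0.765% lower).

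Over the whole set the shift was smaller than in these 8. The median difference over the 86 members was 0.15, beside 0.01 over all features, with 56 members positive and 30 negative. That median was 0.041 with all 16 arrays (47 positive), 0.074 with arrays scaled to equal spread (52 positive) and 0.066 from the authors' value table (49 positive), where all features were at -0.063. In 26 members (30.2%) all 4 LPS pools lay above all 4 air pools, beside 11.3% of all features. In 3 members, Ndufb10, Ndufs5 and Atp5j, all LPS pools lay below all air pools, beside 5.44% of features. By complex, the median difference was 0.12 in complex I, 0.03 in complex II, 0.28 in complex III, 0.20 in complex IV and 0.36 in complex V. With all 16 arrays complex I was at -0.0018 and the other complexes stayed positive, and from the authors' table complex II was at -0.066. Differences between complexes were not tested.

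**Figure D1:**
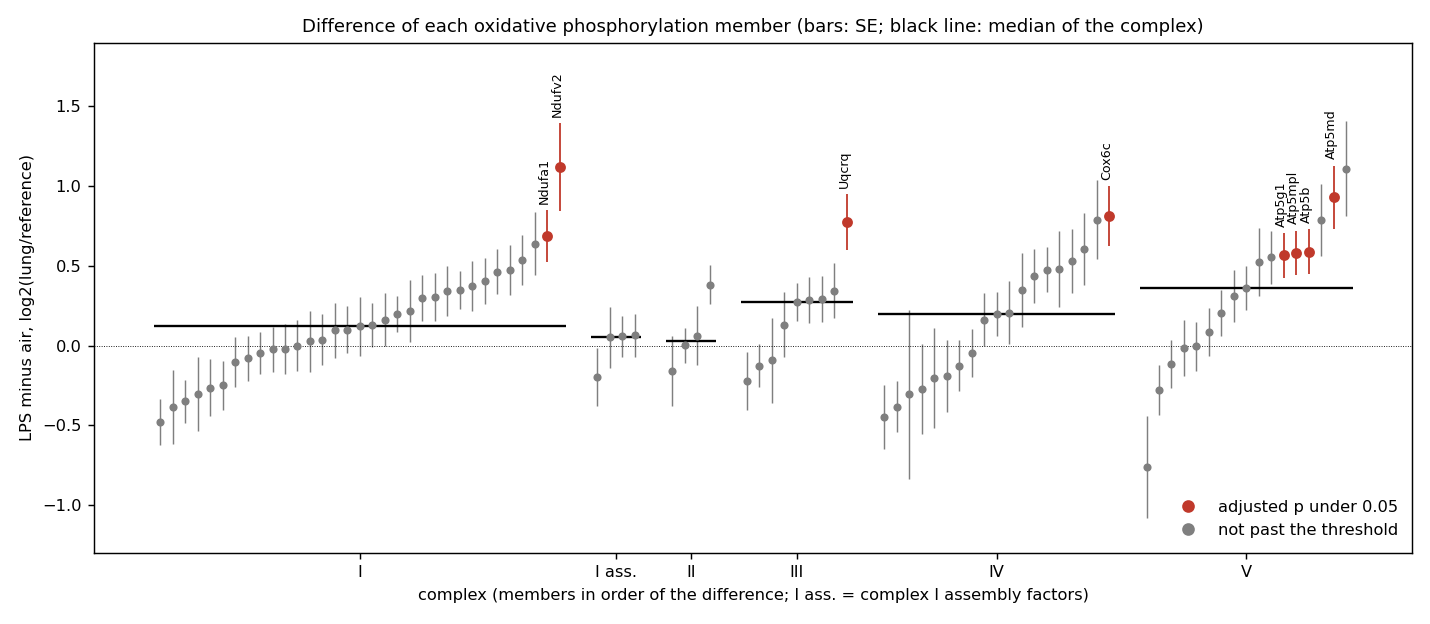
Each point is one of the 86 members, grouped by complex along the x axis, and the y axis is the difference LPS minus air in log2(lung/reference) with its SE; the black line is the median of the complex. Members past the test are marked. Most points of complexes I, III, IV and V lie above 0, the medians run from 0.03 in complex II to 0.36 in complex V, and the highest point is Ndufv2 at 1.12.

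Calls by complex rest on small numbers of genes. Complex V had 4 of 17 members past the test (23.5%), beside 5.95% of all features that rose. Complex I had 2 of 33 (6.06%) and complex IV 1 of 19 (5.26%), both near that share. Complex III had 1 of 9, and complex II and the assembly factors 0 of 4 each. Complex II had 1 member higher and 0 lower at an unadjusted p under 0.05, and the assembly factors had 0 either way. Non-overlap with LPS above air was found for 11.3% of all features. Beside this it was found for 8 of 17 members of complex V (47.1%) and 10 of 33 of complex I (30.3%). In complex III it was 3 of 9, in complex IV 4 of 19 (21.1%) and in complex II 1 of 4.

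The upstream regions of the genes were examined for the motifs that respiratory genes are known to carry in mammals. RefSeq promoters of build GRCm38.p6, from 250 bases before to 50 bases after the gene start, were matched by symbol for 71 of the 86 members. The NRF1 motif (GCGC, then any base, then TGCGC) on either strand was present in 19 of 71 (26.8%), beside 5.19% of all 27025 genes and 7.17% of 17491 coding genes. The ETS motif CCGGAAG, the core bound by GABP, was in 17 (23.9%), beside 9.93% of all and 12.9% of coding genes. The YY1 motif AAGATGGCG was in 7 (9.86%), beside 1.64% and 2.14%. At least 1 of the 3 motifs was present in 37 members, both NRF1 and ETS in 4, and 0 matches of different motifs overlapped.

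Motif content and the response to LPS are set side by side here as a description. Of the 19 members with an NRF1 match 0 passed the limma test, beside 5.95% of all features that rose and 0.713% that fell. Of these 19, 5 were higher and 1 lower at an unadjusted p under 0.05. Their median difference was 0.06, beside 0.16 in the 52 without. Members with an ETS match had a median of 0.20 and those without 0.13. At an unadjusted p under 0.05, 8 of the 17 with an ETS match were higher and 1 lower, beside 14 and 3 of the 54 without. Of the 8 members that rose, 5 had a promoter in the table, of which Atp5md had an ETS match and the other 4 had 0 matches. Promoters of 250 upstream bases are printed as examples, 5′ to 3′ on the gene's strand and ending at the base before the start: Atp5b (chr10:128083057-128083306, plus strand) and Ndufv2 (chr17:66101560-66101809, minus strand) rose and hold no match, whereas Atp5h (chr11:115419920-115420169, minus strand) and Cox6a1 (chr5:115348959-115349208, minus strand) did not pass and hold both. The difference of Atp5h (0.79) exceeded that of Atp5b (0.59), and with the version as a block Atp5h and Cox6a1 passed (limma adjusted p = 0.0200 and 0.0497). Capitals mark the NRF1 and ETS matches.
Atp5b: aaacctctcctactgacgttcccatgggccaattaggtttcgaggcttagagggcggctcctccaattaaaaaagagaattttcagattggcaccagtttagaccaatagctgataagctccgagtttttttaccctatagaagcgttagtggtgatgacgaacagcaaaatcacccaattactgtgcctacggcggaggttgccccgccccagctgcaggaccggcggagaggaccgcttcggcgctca
Ndufv2: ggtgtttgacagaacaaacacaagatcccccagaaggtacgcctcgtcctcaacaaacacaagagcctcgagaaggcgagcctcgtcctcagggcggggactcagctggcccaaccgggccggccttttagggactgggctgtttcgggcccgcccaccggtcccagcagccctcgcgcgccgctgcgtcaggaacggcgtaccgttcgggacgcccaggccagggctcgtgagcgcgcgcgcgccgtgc
Atp5h: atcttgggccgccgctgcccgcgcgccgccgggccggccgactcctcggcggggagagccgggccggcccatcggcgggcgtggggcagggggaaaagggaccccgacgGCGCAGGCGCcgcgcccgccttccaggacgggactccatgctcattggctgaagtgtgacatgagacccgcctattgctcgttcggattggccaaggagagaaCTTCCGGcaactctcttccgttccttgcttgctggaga
Cox6a1: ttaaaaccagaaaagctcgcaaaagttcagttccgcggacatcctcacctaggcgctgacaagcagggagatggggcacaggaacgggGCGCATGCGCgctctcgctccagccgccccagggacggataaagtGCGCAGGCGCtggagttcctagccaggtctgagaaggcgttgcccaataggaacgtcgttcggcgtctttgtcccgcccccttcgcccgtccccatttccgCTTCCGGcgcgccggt
The capitals in Atp5h begin at position -141 for NRF1 and -38 for ETS, counted from the gene start. In Cox6a1 the NRF1 match nearer the start begins at -117 and the ETS match at -16. A match says that these letters are present and not that a factor binds there.

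Complex V contributed 4 of the 8 rises, with members from the catalytic head, the c ring and the small membrane subunits. Atp5b encodes the catalytic beta subunit of the F1 head, and its promoter is printed above. Atp5b was at -0.19, -0.23, -0.65 and -0.51 in LPS pools 1 to 4, against -0.93, -1.09, -1.03 and -0.89 in air pools 1 to 4. The groups did not overlap, and the air pools were close together (SD 0.09). The difference was 0.59 ± 0.14 (limma adjusted p = 0.0344), 0.43 in the pools of version 2.2.4 and 0.75 in those of version 2.2.3. The other 4 subunits of the F1 head did not pass: Atp5d (delta) was at 0.08, Atp5a1 (alpha) at -0.01, Atp5e (epsilon) at -0.02 and Atp5c1 (gamma) at -0.28, and the median of the 5 was -0.01.

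The c ring, the proton-driven rotor, is encoded in mammals by Atp5g1, Atp5g2 and Atp5g3, which specify the same mature protein behind different import sequences. Atp5g1 was at -0.84, -0.85, -1.32 and -1.11 in LPS pools, against -1.57, -1.59, -1.67 and -1.56 in air pools. Every LPS pool lay above every air pool, with a difference of 0.57 ± 0.14 (limma adjusted p = 0.0384). Atp5g3 was at 0.30, 0.61, -0.14 and -0.16 in LPS pools, against -0.52, -0.33, -1.41 and -1.57 in air pools. Here LPS pools 1 and 2 were the highest and air pools 3 and 4 the lowest, and these are the pools of version 2.2.3. The difference of 1.11 ± 0.30 narrowly missed the threshold (limma adjusted p = 0.0529; 0.0385 with the version as a block). Atp5g2, at 0.31 ± 0.16 (adjusted p = 0.293), had the lowest level of all 86 members in air, with a mean of -1.87. Its LPS pools were at -1.23, -1.36, -1.79 and -1.85, against -1.84, -1.97, -1.75 and -1.90 in air pools, so that the groups overlapped.

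Among the small membrane subunits, Atp5md and Atp5mpl rose. Atp5md, also known as DAPIT, takes part in joining ATP synthase dimers. It was at -0.48, -0.54, -0.74 and -1.0 in LPS pools, against -1.38, -1.45, -2.17 and -1.47 in air pools. Air pool 3 stood apart below the others, and without it the difference was 0.74, beside 0.93 ± 0.20 with it (limma adjusted p = 0.0221). Of the 8 members, Atp5md kept its call most often when 1 pool was left out, in 5 of 8 fits. Atp5mpl encodes a short proteolipid of the membrane part. It was at -0.27, -0.58, -0.46 and -0.66 in LPS pools, against -1.0, -0.89, -1.24 and -1.16 in air pools. The groups were separate, with a difference of 0.58 ± 0.14 (adjusted p = 0.0340). Atp5l (g) was at 0.52 and Atp5j2 (f) at 0.36 without passing, and Atp5k (e) was at -0.12.

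The peripheral stalk, which holds the head still against the rotor, gave values in both directions and no call. Atp5h (subunit d) was at -0.07, -0.30, -0.19 and -0.09 in LPS pools, against -0.50, -0.54, -1.51 and -1.25 in air pools. The groups did not overlap, but the difference of 0.79 ± 0.23 did not pass (limma adjusted p = 0.0679; 0.0200 with the version as a block). Atp5pb (subunit b) was at 0.55 ± 0.16 on its brightest probe (adjusted p = 0.0766) and at -0.50 on its other probe, so its direction is not settled. Atp5j (coupling factor 6) had the lowest difference of all members, -0.76 ± 0.32 (adjusted p = 0.195), with -0.93, -0.66, -0.55 and -0.91 in LPS pools, against -0.54, 1.13, -0.40 and -0.20 in air pools. Air pool 2 stood well above the rest for Atp5j, and the differences without 1 pool ran from -0.94 to -0.38. Atp5o, the stalk subunit OSCP, was at 0.20.

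**Figure D2:**
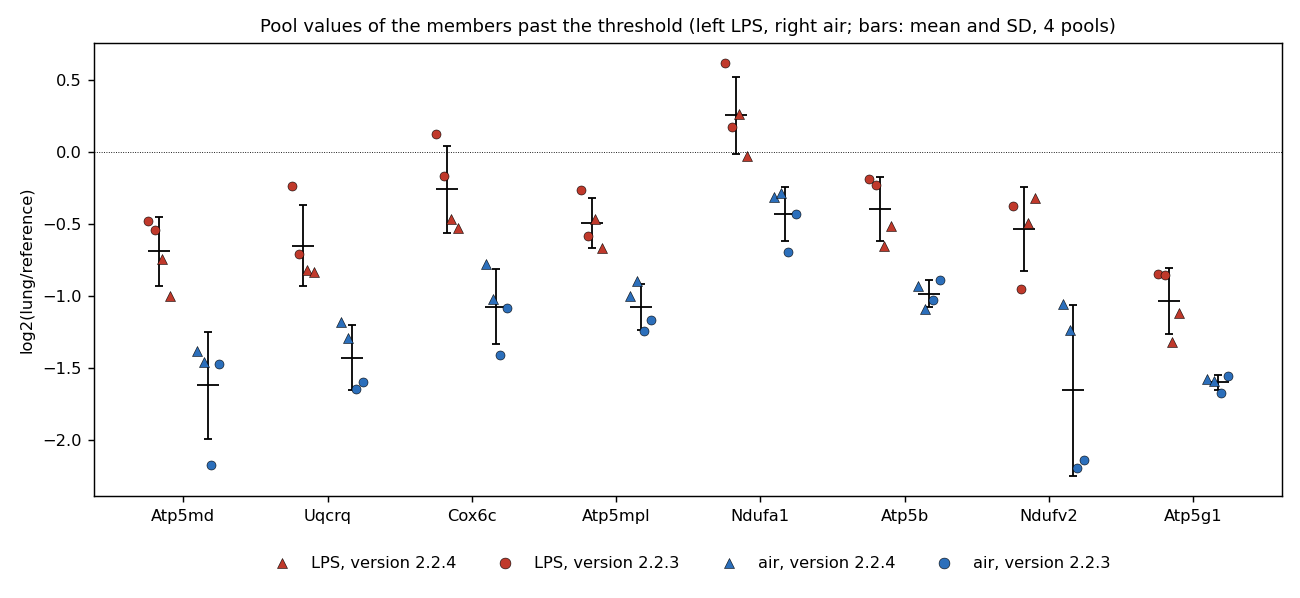
The y axis is log2(lung/reference) and the points are single pools of the 8 members past the test, LPS on the left and air on the right of each gene, with the mean and SD of 4 pools; triangles are version 2.2.4 and circles version 2.2.3. In all 8 genes the LPS pools lie above the air pools; the difference of means is largest in Ndufv2, where air pools 3 and 4 sit at -2.19 and -2.13.

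Complex I had the largest single difference and many small ones. Ndufv2 encodes an iron-sulfur core subunit of the NADH-oxidising arm, and its promoter is among those printed. It was at -0.37, -0.95, -0.49 and -0.32 in LPS pools, against -1.06, -1.24, -2.19 and -2.13 in air pools. LPS pool 2 came close to air pool 1, and air pools 3 and 4 were far below air pools 1 and 2. The difference was 1.12 ± 0.27, or 2.17-fold (limma adjusted p = 0.0367), with 0.74 in version 2.2.4 and 1.50 in version 2.2.3. Ndufa1 encodes a small membrane subunit needed for assembly. It was at 0.62, 0.17, 0.26 and -0.03 in LPS pools, against -0.31, -0.28, -0.69 and -0.43 in air pools. These groups did not overlap either, at 0.69 ± 0.16 (adjusted p = 0.0342).

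The other core subunits of complex I did not pass. All 6 core genes lay below the reference in all 8 pools, and their median difference was 0.34. Ndufs3, which lies in the hydrophilic arm, was at -0.45, -0.51, -0.07 and -0.23 in LPS pools, against -0.63, -0.70, -0.94 and -0.84 in air pools. Its LPS pools lay above the air pools by 0.46 ± 0.14 (limma adjusted p = 0.0861; 0.0248 with the version as a block), to a like extent in version 2.2.4 (0.52) and version 2.2.3 (0.41) but not on the dyes, with -0.037 on Cy3 arrays alone and 0.87 on Cy5 arrays alone. The iron-sulfur subunits Ndufs8 and Ndufs1 were at 0.35 and 0.34, whereas Ndufs7 was at -0.05 and the flavin-binding Ndufv1 at -0.10.

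The 27 accessory subunits of complex I, which surround the core, had a median difference of 0.10, with 17 positive and 10 negative. Ndufa12 was at -0.93, -1.44, -1.25 and -1.06 in LPS pools, against -1.66, -1.52, -1.67 and -1.97 in air pools. The LPS pools lay above the air pools, at 0.54 ± 0.15 without passing (limma adjusted p = 0.0694). Ndufb10, a subunit of the proton-pumping membrane arm, ran the other way. It was at -0.38, -0.13, -0.12 and 0.04 in LPS pools, against 0.21, 0.14, 0.43 and 0.53 in air pools. All its LPS pools lay below all its air pools, at -0.48 ± 0.14 (adjusted p = 0.0814). Ndufs5 was also below air in every LPS pool, at -0.35 ± 0.14 (adjusted p = 0.161). The 27 ranged from Ndufb10 at -0.48 to Ndufa1 at 0.69, and Ndufs6 was positive on both of its probes, at 0.41 and 0.63.

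The 4 assembly factors of complex I were near 0. Ndufaf3, Ndufaf4 and Ndufaf5 were at 0.06, 0.06 and 0.05 and Ndufaf1 at -0.20 ± 0.18 (limma adjusted p = 0.554). Of 22 measured assembly factors for the other complexes and for complex I outside the Ndufaf family, 0 passed in either direction. This stands beside 5.95% of all features that rose and 0.713% that fell. At an unadjusted p under 0.05, 3 of the 22 were higher and 1 lower, and their median difference was 0.08.

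Complex II, which is also an enzyme of the citric acid cycle, had the median nearest 0 of the 5 complexes. In 3 of its 4 members, Sdha, Sdhb and Sdhd, the sign differed between the image-analysis versions. Sdhc, a membrane anchor, was at -0.01, -0.09, -0.20 and -0.06 in LPS pools, against -0.52, -0.58, -0.50 and -0.28 in air pools. It did not pass at 0.38 ± 0.12 (limma adjusted p = 0.0964), although the groups were separate and the difference was alike in version 2.2.4 (0.42) and version 2.2.3 (0.34). Sdha, the flavoprotein, was level, at 0.00 ± 0.11, with all 8 pools between -0.05 and 0.11. Sdhb, the iron-sulfur subunit, was at -0.39, -0.42, -0.09 and -0.13 in LPS pools, against -0.52, -0.48, 0.34 and 0.28 in air pools. Air pools 1 and 2 were thus the lowest of all 8 and air pools 3 and 4 the highest. Its difference was 0.39 in version 2.2.4 and -0.71 in version 2.2.3 (difference between versions 1.10 ± 0.17, limma adjusted p = 0.0218). Sdhd, the other anchor, was at 0.06, with 0.29 in version 2.2.4 and -0.17 in version 2.2.3.

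In complex III only Uqcrq passed. It encodes a small subunit near the ubiquinone site. Uqcrq was at -0.24, -0.71, -0.82 and -0.83 in LPS pools, against -1.18, -1.29, -1.64 and -1.60 in air pools. The groups were separate, at 0.78 ± 0.17 (limma adjusted p = 0.0268), and without 1 pool the difference lay between 0.64 and 0.86. The electron-carrying subunits did not pass: cytochrome c1 (Cyc1) was at -0.09 ± 0.27, with air pool 2 at 0.85 and the other air pools between -0.60 and -0.04, and the Rieske protein (Uqcrfs1) was at 0.13 ± 0.20. The core proteins Uqcrc1 and Uqcrc2 were at 0.34 and 0.29, and the hinge protein Uqcrh was at -0.22.

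Complex IV divided by kind of isoform. Of 12 widely expressed subunits, 11 had positive differences and the median was 0.46, whereas all 7 tissue-restricted isoforms had negative differences and a median of -0.20. The exception among the widely expressed was Cox7c at -0.27, with 0.37 on Cy3 arrays alone and -0.73 on Cy5 arrays alone. Only Cox6c passed the test. It encodes a small subunit with no known tissue isoform. Cox6c was at 0.12, -0.17, -0.46 and -0.53 in LPS pools, against -0.78, -1.02, -1.41 and -1.08 in air pools. All LPS pools lay above all air pools, at 0.81 ± 0.19 (limma adjusted p = 0.0287). The split between the kinds of isoform was not tested. Under median centring or scaling between arrays 6 of the 7 restricted isoforms stayed negative and 11 of the 12 widely expressed ones positive. In the pools of version 2.2.4 alone it was smaller, with medians of 0.20 for the widely expressed and -0.05 for the restricted isoforms, and 3 of the 7 restricted isoforms were positive there. In the pools of version 2.2.3 alone the medians were 0.74 and -0.40. The restricted median also depended on single pools. It was -0.050 without LPS pool 1, with 3 of the 7 positive, -0.071 without LPS pool 2, -0.11 without air pool 1, -0.39 without LPS pool 3, -0.40 without LPS pool 4 and -0.35 without air pool 3. The widely expressed median was 0.18 with all 16 arrays, 0.27 with arrays scaled to equal spread and 0.30 without air pool 3, and the restricted median was -0.13 with scaling and -0.33 from the authors' table.

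Where an isoform pair exists, the widely expressed partner had the higher difference in each of the 7 pairs examined. The same held in all 7 under every other setting tried, except in the pools of version 2.2.4 alone, where it held in 6. Cox6b1 was at 0.79 ± 0.25 (limma adjusted p = 0.0894), with -0.14, -0.68, -0.32 and -0.39 in LPS pools, against -0.64, -0.81, -1.77 and -1.46 in air pools. Its testis partner Cox6b2 was at -0.45 ± 0.20 (adjusted p = 0.218), with 0.18, 0.54, 0.40 and 0.65 in LPS pools, against 0.71, 0.58, 0.81 and 1.46 in air pools. Both pairs of groups overlapped, in Cox6b1 through LPS pool 2 and air pool 1. The sign of Cox6b2 depended on the dye, with 0.094 on Cy3 arrays alone and -0.74 on Cy5 arrays alone. Cox6a1, the form of most tissues, was at 0.48 ± 0.14 (adjusted p = 0.0791; 0.0497 with the version as a block) and its heart and skeletal muscle partner Cox6a2 at -0.38 ± 0.16 (adjusted p = 0.190). Ndufa4 was at 0.61 ± 0.23 (adjusted p = 0.153), Cox4i1 at 0.44 ± 0.17 (adjusted p = 0.165) and Cox7a2 at 0.35 ± 0.23 (adjusted p = 0.406). Their partners Ndufa4l2, Cox4i2 and Cox7a1 were at -0.31 ± 0.53, -0.19 ± 0.22 and -0.05 ± 0.15. Cox8a and the muscle form Cox8b were at 0.20 ± 0.14 and -0.20 ± 0.31, and Cox7b and the testis form Cox7b2 at 0.48 ± 0.24 and -0.13 ± 0.16. The signal of Cox7b2 was the weakest of all members, 2.04 times the local background in LPS arrays and 1.59 times in air arrays.

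**Figure D3:**
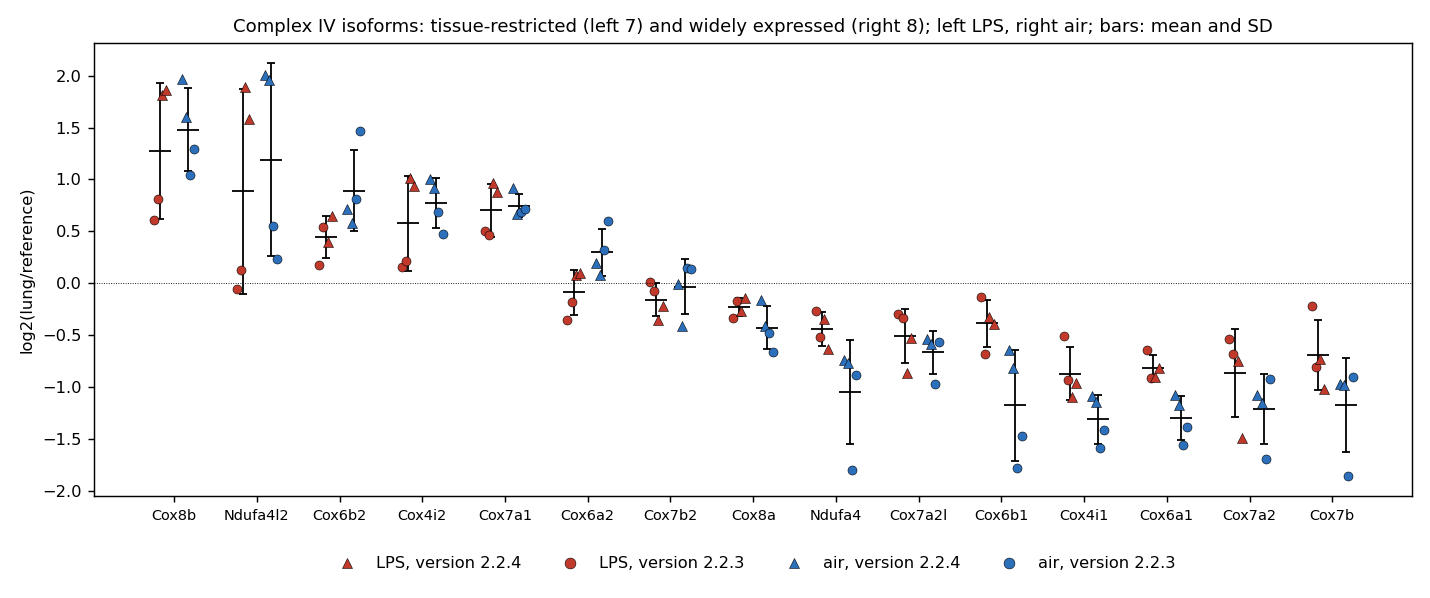
Points are single pools, with LPS left and air right of each gene, and bars give the mean and SD of 4 pools; the y axis is log2(lung/reference). The 7 tissue-restricted isoforms are on the left and 8 widely expressed subunits on the right; the restricted forms reach values near 2 in Cox8b and Ndufa4l2, and the widely expressed ones lie below 0 in every pool.

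Of the 7 restricted isoforms, 5 were the members with the highest level relative to the reference. In air pools the 5 highest of all 86 were Cox8b (1.48 ± 0.40, SD), Ndufa4l2 (1.19 ± 0.93), Cox6b2 (0.89 ± 0.39), Cox4i2 (0.77 ± 0.24), the isoform known for its expression in lung, and Cox7a1 (0.75 ± 0.11). In LPS pools they were at 1.27 ± 0.66, 0.88 ± 0.99, 0.44 ± 0.20, 0.58 ± 0.46 and 0.70 ± 0.25. The other two lay lower: Cox6a2 at -0.09 ± 0.22 in LPS pools and 0.30 ± 0.22 in air pools, after Ndufb10, and Cox7b2 at -0.16 ± 0.16 in LPS pools and -0.033 ± 0.26 in air pools. Ndufa4l2, a gene known to be induced through Hif1a, followed the version: it was at 1.89 and 1.58 in LPS pools 3 and 4 and at 2.01 and 1.96 in air pools 1 and 2, all of version 2.2.4. It was at -0.05 and 0.13 in LPS pools 1 and 2 and at 0.55 and 0.24 in air pools 3 and 4, all of version 2.2.3. Cox7a1, Cox6b2, Cox6a2 and Cox7b2 overlapped between the versions, but Cox8b and Cox4i2 were also higher in every pool of version 2.2.4. Pair means of Cox8b were 1.84 in LPS and 1.79 in air pools of version 2.2.4, against 0.71 and 1.17 in version 2.2.3. For Cox4i2 they were 0.97 and 0.96, against 0.19 and 0.58. Markers of endothelium, which are high in lung, were split the same way. Their list means were 3.55 and 3.42 in LPS pools 3 and 4 and 3.57 and 3.51 in air pools 1 and 2. They were 2.22 and 2.48 in LPS pools 1 and 2 and 2.44 and 2.87 in air pools 3 and 4. The split was not particular to endothelium. Means of the alveolar type 1, alveolar type 2, ciliated, club cell and smooth muscle lists were also higher in every pool of version 2.2.4. For alveolar type 1 they were 2.12 to 2.47 against 0.93 to 1.69, and for ciliated cells 0.79 to 1.04 against 0.40 to 0.60. The macrophage, neutrophil, striated muscle and brown fat lists overlapped between the versions.

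Most of the family lay below the reference. In 47 of 86 members (54.7%) all 8 pools had a negative log2 ratio, beside 17.8% of all features, and in 5 members all 8 were positive. The median level of the 86 members was -0.31 in LPS pools and -0.60 in air pools. By complex, it was -0.28 in LPS and -0.58 in air for complex I, -0.17 and -0.28 for complex II, -0.25 and -0.48 for complex III, -0.38 and -0.73 for complex IV and -0.59 and -0.95 for complex V. Over all features the medians were 0.01 in LPS and 0.04 in air.

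Pool by pool, the complex medians separated the groups for complexes I, IV and V. For complex V the pool medians were -0.39, -0.57, -0.65 and -0.67 in LPS, against -0.79, -0.89, -1.20 and -0.89 in air. For complex IV they were -0.27 to -0.39 in LPS and -0.65 to -0.97 in air, and for complex I -0.28 to -0.35 in LPS and -0.46 to -0.70 in air. In complex III, LPS pool 4 (-0.43) lay below air pools 1 and 4 (-0.39 and -0.37). In complex II the medians were -0.14, -0.20, -0.14 and -0.10 in LPS, against -0.52, -0.53, -0.11 and -0.03 in air, so that air pools 3 and 4 were level with the LPS pools. Pools of one complex share their animals and arrays with those of the others.

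**Figure D4:**
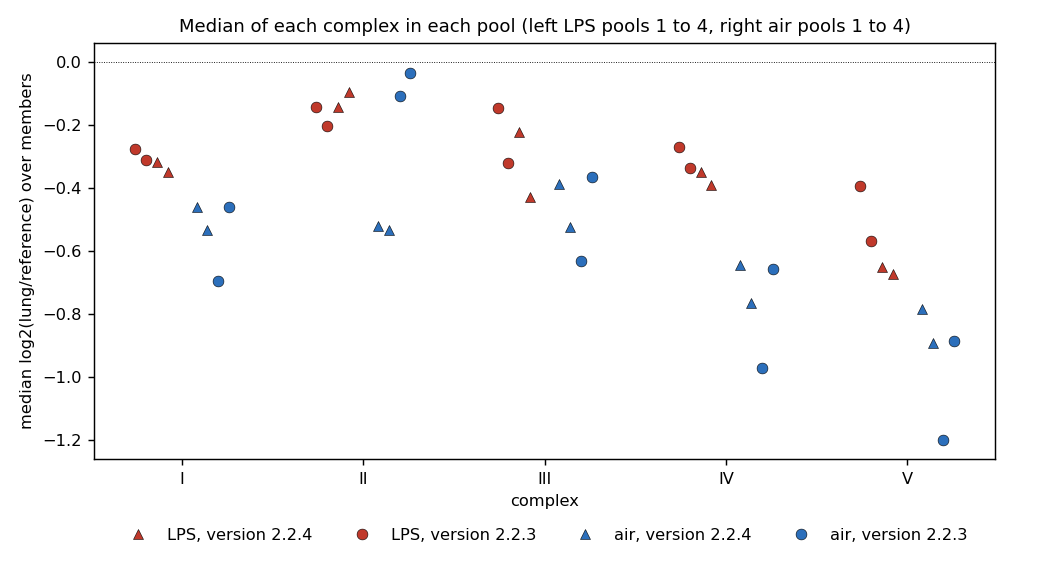
Each point is the median log2(lung/reference) of a complex in one pool, LPS pools 1 to 4 (red) on the left and air pools 1 to 4 (blue) on the right, as triangles for version 2.2.4 and circles for version 2.2.3. Complexes I, IV and V lie higher in every LPS pool than in any air pool, and air pool 3 is the lowest for complexes I, III, IV and V.

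Of the 86 members 39 were positive and 14 negative in both versions, and 33 had opposite signs. The same sign was thus shared by 61.6%, beside 55.6% of all features. Between the dye orientations the same sign was shared by 69.8% of members, beside 70.4% of all features. The median difference of the 86 members was 0.09 in version 2.2.4 and 0.28 in version 2.2.3. For complex V it was 0.17 and 0.56, for complex IV 0.09 and 0.31, for complex III 0.08 and 0.33 and for complex I 0.07 and 0.25, while complex II was at 0.34 and -0.06. All 8 members past the test were positive in both versions and had the larger difference in version 2.2.3. In the pools of version 2.2.4 alone 2 members passed as higher, Ndufv2 and Uqcrb, beside 4.35% of all features, and in those of version 2.2.3 alone 19 passed as higher and 6 as lower, beside 14.7% and 8.36%. The 6 lower members were Ndufb10, Ndufv3, Sdhb, Cox6a2, Cox6b2 and Cox7c. With the version as a block 15 rose and 0 fell (limma; 6 lower at an unadjusted p under 0.05), beside 8.72% and 2.26% of all features.

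The versions differed by test in 5 members (5.81%), beside 8.69% of all features. Given as version 2.2.4 minus version 2.2.3, the difference was -1.67 ± 0.22 for Atp5g3 (limma adjusted p = 0.0199), -0.82 ± 0.21 for Atp5h (0.0491), -1.02 ± 0.18 for Ndufa9 (0.0244), -0.84 ± 0.20 for Ndufb4 (0.0405) and 1.10 for Sdhb, given above. In Atp5g3, Atp5h and Ndufb4 the gap between air pools 1 and 2 and air pools 3 and 4 exceeded that between LPS pools of the versions. Ndufa9, a subunit that binds NADPH, was at 0.29, 0.25, -0.27 and -0.13 in LPS pools, against 0.06, 0.12, -0.50 and -0.41 in air pools, which overlapped. The version, the week number and the animals of air pools 1 and 2 against 3 and 4 cannot be told apart in these values.

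**Figure D5:**
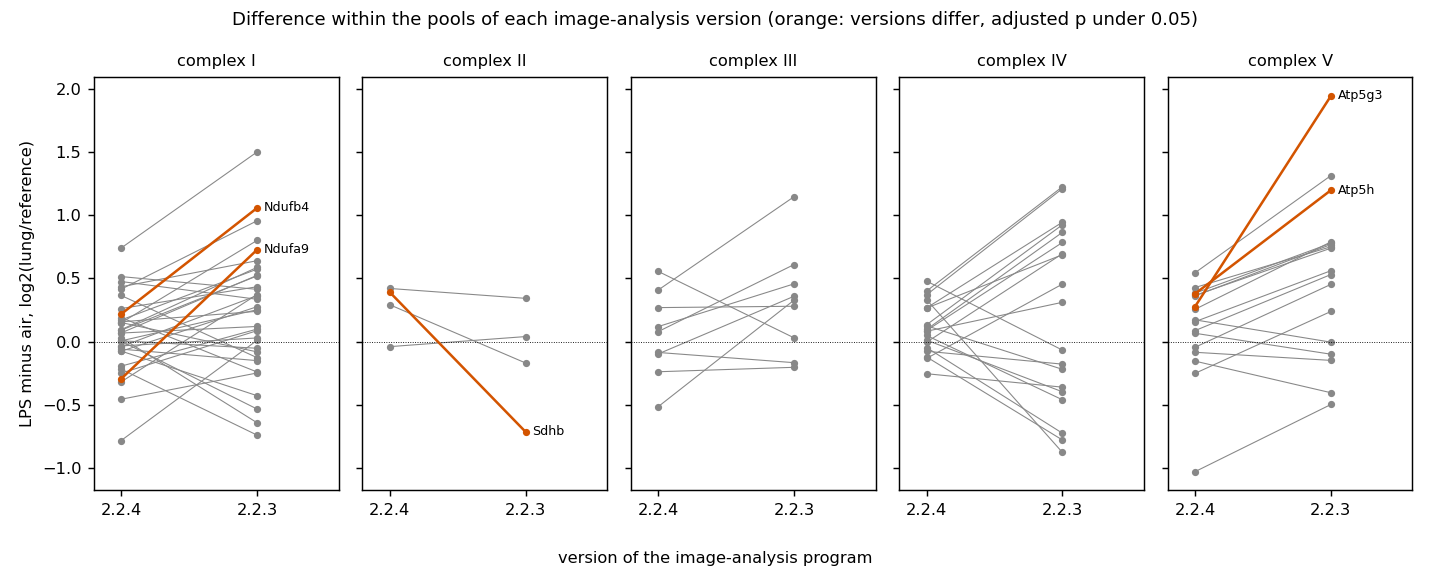
Lines join the difference LPS minus air of each member in the pools of version 2.2.4 (left) and version 2.2.3 (right), in a panel for each complex, on the log2(lung/reference) scale. The 5 members in orange are those whose versions differed by the test; Atp5g3 runs between 0.28 in version 2.2.4 and 1.94 in version 2.2.3, and Sdhb between 0.39 and -0.71.

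Genes that serve the same pathway outside the subunits are given for comparison. Of 12 mobile carriers and exchangers 2 rose and 0 fell, beside 5.95% and 0.713% of all features. Cytochrome c (Cycs), the electron carrier between complexes III and IV, was at 0.01, -0.51, -0.25 and -0.39 in LPS pools, against -1.29, -1.13, -1.94 and -1.70 in air pools. The groups were far apart, at 1.23 ± 0.20 (limma adjusted p = 0.00511), and the call held in all 8 fits without 1 pool. The adenine nucleotide translocase Slc25a5 rose by 0.57 ± 0.13 (adjusted p = 0.0268), while its heart and muscle isoform Slc25a4 was at -0.08. Of 7 genes of ubiquinone synthesis Coq6 rose (1.19 ± 0.27, adjusted p = 0.0272) and all 7 had positive differences. Unlike Cycs, Slc25a5 passed in only 2 of the 8 fits without 1 pool, and Coq6 in 3.

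Of 16 regulators of mitochondrial biogenesis 2 rose and 0 fell (5 higher and 3 lower at an unadjusted p under 0.05). Their median difference was -0.046, with 7 positive and 9 negative. Hif1a, the oxygen-regulated transcription factor subunit, was at 0.47, 0.49, 0.11 and -0.61 in LPS pools, against -1.63, -1.55, -1.66 and -1.61 in air pools. Its rise of 1.72 ± 0.23 (limma adjusted p = 0.00156) was larger than that of any of the 86 subunits and assembly factors. The coactivator Pprc1 rose by 0.76 ± 0.19 (adjusted p = 0.0429), and its relative Ppargc1a, which is known to drive respiratory genes, was at -0.37 ± 0.14 (adjusted p = 0.159). Nrf1 was at 0.13 and Tfam, which maintains mitochondrial DNA, at -0.12. Of 16 genes of mitochondrial mass and protein import 4 rose and 0 fell, beside 5.95% and 0.713% of all features. The 4 were the translocases Timm23 (0.90), Tomm70a (0.86) and Tomm22 (0.64) and the chaperone Hspe1 (0.80). Citrate synthase (Cs) was at 0.32 ± 0.22 (adjusted p = 0.406). Hif1a and Timm23 passed in all 8 fits without 1 pool. Hspe1 passed in 3 of them, Tomm70a and Tomm22 in 2 each and Pprc1 in 1.

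Marker genes of cells that carry different amounts of mitochondria also differed, and their part in the values above was not tested. Over all features 5.95% rose and 0.713% fell. Of 9 macrophage and monocyte markers 6 were higher, with list means of 2.23 to 2.69 in LPS pools and 0.56 to 1.08 in air pools. Of 9 neutrophil markers 5 were higher, with means of 1.61 to 2.93 in LPS and 0.13 to 0.98 in air. Of 22 striated muscle markers, for heart and pulmonary vein, 3 fell: Ckmt2 (-1.14 ± 0.25, limma adjusted p = 0.0245), Tnnt2 (-0.72 ± 0.17, 0.0344) and Casq2 (-0.68 ± 0.17, 0.0381). With 1 pool left out, Ckmt2 passed in 5 of 8 fits, Tnnt2 in 2 and Casq2 in 1. At an unadjusted p under 0.05, 1 of the 22 was higher and 5 were lower, and 7 had positive differences, up to 0.72 ± 0.22 in Tnnc1 (limma adjusted p = 0.0819). The means of that list were 0.16 to 0.40 in LPS pools and 0.23 to 0.70 in air pools, so they overlapped. Of 7 brown fat markers 0 passed (1 higher and 2 lower at an unadjusted p under 0.05), with means of 0.04 to 0.16 in LPS and 0.25 to 0.37 in air. Among resident cells 2 of 6 smooth muscle markers were higher, but the other 4 had negative differences and the list median was -0.13. Of 5 alveolar type 1 markers 1 was higher, but 3 had negative differences and the median was -0.07. In the other lists 0 of 6 alveolar type 2, 0 of 6 endothelial, 0 of 4 ciliated and 0 of 2 club cell markers passed. At an unadjusted p under 0.05, 0 of the type 2, endothelial and ciliated markers and 1 club cell marker in each direction passed. In version 2.2.4 the alveolar type 2 list had means of 5.08 and 5.06 in LPS pools and 4.34 and 4.25 in air pools. In version 2.2.3 they were 3.51 and 3.53 in LPS pools, against 3.16 and 3.69 in air pools. The median difference of the type 2 list was 0.87 in version 2.2.4 and -0.19 in version 2.2.3. Type 2 markers were thus well above the reference in every pool.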

How the data were processed

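Per the file headers, the authors quantified the images with TIGR Spotfinder 2.2.3 or 2.2.4, and the deposited intensity values had the local background subtracted. A second deposited table holds the authors' log2 ratios, with column medians from -0.136 to 0.0889. Set against the spot intensities, 15 columns ran as log2(lung/reference) (slopes 0.961 to 0.997), and that of air pool 4 with lung in Cy3 was deposited as log10 values (slope 0.297). No source used here says how that table was centred and normalised. The Cy5 values of the left-out array correlated at r = 0.998 with the Cy5 image of the air pool 3 array that has lung in Cy5.

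With R 4.3.3 and limma 3.58.1, ratios were loess-normalised within arrays, expressed as log2(lung/reference) and averaged to 1 value per pool, a feature needing 3 pools a group. Tests were two-sided lmFit and eBayes with Benjamini-Hochberg adjustment over 20629 features at 0.05, and the brightest probe stood for a gene. The script was tested on simulated data. Annotation gave 1 symbol to 18218 probes and several to 16, which were not named, and 18175 matched RefSeq by gene number. Of 8 placements of it on the grid the one used gave r = 0.542 between probes of a gene over 1030 pairs, against at most 0.0704. Named genes are the members past the test, the extremes and smallest p of each complex, the extremes in level, and fixed isoforms; other members were named after their values were seen. Members and lists were chosen with earlier results of these data known. Probe sequences were not used here, and cross-hybridisation between paralogues was not tested.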

Additional observations from a re-analysis of the deposited data

Results flagged for a closer look

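In 6 of the 76 groups of 4 pools checked over the named members, 1 pool stood apart from its group by Dixon's 95% criterion, which chance meets in about 1 group in 20. All were air groups. Air pool 3 was the lowest for Atp5md (-2.17, with the nearest air pool at -1.47), Cox7b (-1.85, nearest -0.98), Ndufa4 (-1.79, nearest -0.88) and Cox7a2l (-0.97, nearest -0.58). Air pool 1 was low for Ndufaf3 (-0.078, nearest 0.12) and air pool 4 high for Ndufaf4 (0.28, nearest 0.09).

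The difference LPS minus air was not the same in the pools of both image-analysis versions for 5 members. By the limma interaction, given as version 2.2.4 minus version 2.2.3, it was lower in version 2.2.4 for Atp5g3 (-1.67), Atp5h (-0.82), Ndufa9 (-1.02) and Ndufb4 (-0.84), and higher for Sdhb (1.10).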

How the results depend on the processing

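The count of 8 higher members changed with many settings. It was 0 with all 16 arrays (limma; 3 higher and 4 lower at an unadjusted p under 0.05), 0 with median centring in place of loess (19 and 2), 4 with arrays scaled to equal spread, 3 from the authors' value table, 15 with the version as a block, 19 in version 2.2.3 alone with 6 lower, 2 in version 2.2.4 alone, and 0 to 9 with 1 pool left out. With only Cy3 or only Cy5 arrays, settings added after the data were seen, it was 2 and 3. It was 8 or 9 with dim spots or spots with a factor below 1 left out, with probes averaged and with named genes alone. Pool numbers do not pair the pools (correlations of same-numbered deviations -0.04, -0.26, -0.05 and -0.25), and the replicate block gave 4 higher. With all 16 arrays, the mixed array of air pool 4 among them, the median differences of complexes I, III, IV and V were -0.0018, 0.058, 0.081 and 0.15. Scaling gave 0.20 for complex V, and the authors' table gave -0.066, 0.14 and 0.082 for complexes II, III and IV. Version 2.2.4 alone gave 0.34, 0.080 and 0.17 for complexes II, III and V, and version 2.2.3 alone 0.25, 0.31 and 0.56 for complexes I, IV and V. Cy3 arrays gave 0.030 for complex I and 0.36 for complex IV, and Cy5 arrays 0.042 for complex IV. The cause was not tested. Of the comparisons of the 38 named members with their alternatives, 727 stayed on the same side of the threshold, 90 lost a call, 19 gained one and 0 changed direction with a call. All features past the test numbered 1375, against 501 with all 16 arrays, 735 with median centring, 857 with the replicate block, 2265 with the version block, 4707 in version 2.2.3 alone, 409 on Cy3 arrays and 704 to 1256 with 1 pool left out. The 8 pools, 4 a group, limit the precision.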
